A study of Mus musculus with 2 samples.

Results

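Retinoic acid synthesis and response in the developing kidney was followed through 9 genes of the 32285 counted in each library. They are the retinoid transporter gene Stra6, the retinal dehydrogenase genes Aldh1a1, Aldh1a2 and Aldh1a3, the binding protein genes Crabp1 and Crabp2, the retinoic acid hydroxylase gene Cyp26b1 and the receptor genes Rara and Rarb. The genes were chosen by symbol, as the members of the pathway read in these kidneys, and their UMIs were summed over types of nuclei that were defined by markers outside the retinoid pathway. Single-nucleus RNA sequencing (snRNA-seq) was performed on nuclei of whole mouse kidneys at E18.5, in late gestation, and at P3, in the first postnatal days, with 1 library per age. The E18.5 kidneys carried floxed alleles of Myc and Mycn without a Cre transgene (Mycf/f;Mycnf/f) on a mixed strain background. The P3 kidneys were labelled wild type on C57BL/6J, while the study's methods give a mixed background. Both libraries pooled kidneys of male and female mice, and kidneys had been snap-frozen and thawed before nuclei were released. The file headers also name Cell Ranger 7.0.0 for E18.5 and 5.0.1 for P3, releases whose defaults differ in counting intronic reads. Any effect of age, of genotype, of strain, of this processing or of the single library cannot be told apart from the others, and no comparison between ages has a replicate check.

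Retinol reaches cells bound to a carrier protein and can be taken up through the membrane receptor STRA6. Retinol is oxidized to retinal and then, by a retinal dehydrogenase of the ALDH1A family, to retinoic acid, which enters the nucleus and acts through RAR and RXR receptors on DNA. CRABP proteins bind retinoic acid in the cytoplasm and CYP26 enzymes hydroxylate it, so that cells with a dehydrogenase act as sources and cells with a hydroxylase as sinks. In the embryonic kidney, stromal retinoic acid synthesis and RAR activity are known for maintaining Ret, the receptor through which the ureteric bud responds to GDNF and branches.

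The E18.5 library held 21600 barcodes, of which 21270 were kept with a median of 3132.5 UMIs, and the P3 library held 12216, of which 11765 were kept with a median of 4534 UMIs. In all, 69 barcode sequences occurred in both libraries. The nuclei were clustered with every retinoid gene left out and the clusters were named from marker genes. The names carry the ending -like for that reason. This gave 4977 interstitium-like, 3170 nephron progenitor-like, 2128 proximal tubule-like, 1473 endothelium-like, 1171 podocyte-like and 1146 ureteric epithelium-like nuclei at E18.5, and 2967 interstitium-like, 2103 proximal tubule-like, 946 endothelium-like and 436 ureteric epithelium-like nuclei at P3. Clusters that kept no class name held 30.5% of nuclei at E18.5 and 34.5% at P3. These included shallow clusters led by hemoglobin or by histone and ribosomal genes, of 2730 nuclei at E18.5 (median 1250 UMIs) and 1563 at P3 (median 970 UMIs), and clusters in which most nuclei were called doublets. Levels are given as UMIs scaled to counts per 1e6 UMIs of the nuclei summed (CPM), with exact Poisson intervals, and ratios of such levels with exact conditional binomial intervals, all at the 95% level. All intervals cover counting error only. The shallow clusters raised hemoglobin genes, with erythroid as their best class, but the naming rules gave them no class. They had 104 CPM of Aldh1a2, 67.1 CPM of Rarb and 20.97 CPM of Aldh1a3 at E18.5, and 99.5 CPM, 194 CPM and 65.98 CPM at P3. Levels are not scaled to gene length and are compared between nuclei, not between genes.

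Aldh1a2, which makes retinoic acid in the early embryo and whose kidney role is best known in stroma, lies at chr9:71215789-71296243 (+) of GRCm38. The files held 9840 of its UMIs at E18.5 and 5331 at P3. At E18.5 its level was highest, among named groups, in nephrogenic zone stroma-like nuclei, a group named from Ntn1, Rspo3, Fibin and Foxd1, where 884 UMIs in 925 nuclei gave 329.5 CPM (308–352). In the other interstitium-like nuclei it was 79.1 CPM, a ratio of 4.17 (3.81–4.56). Cortical stroma-like nuclei had 51.1 CPM, medullary stroma-like nuclei 40.5 CPM and papillary stroma-like nuclei 29.8 CPM. The other named stromal groups were thus under the library mean of 127 CPM. An unnamed interstitial cluster of 216 nuclei, led by cell-cycle genes such as Kif23 and Ect2 and raising Ntn1 and Fibin, had 366 CPM (326–409). An Aldh1a2 UMI was found in 53.4% of nephrogenic zone stroma-like nuclei, and in 26.8% once each nucleus was thinned to 1000 UMIs. The thinned share was 2.52% of leukocyte-like nuclei (unthinned 7.50%, median depth 2300 UMIs against 2966 UMIs in interstitium-like nuclei). Thinning left out 286 nuclei at E18.5 and 930 at P3 that were below 1000 UMIs.

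The epithelial lineage carried Aldh1a2 as well. Nephron progenitor-like nuclei, led by Eya1, had 188 CPM (180–196) at E18.5. The nephrogenic zone stroma-like level was 1.75 times (1.62–1.90) theirs. A proximal tubule-like cluster led by Grid1 and Cdh6 and holding 1628 nuclei had 232 CPM, and the proximal tubule-like cluster led by transporter genes such as Slc22a27 and Slc17a3 had 83.8 CPM, a ratio of 2.77 (2.37–3.25). The transcript was therefore higher in the tubule nuclei with fewer transporter genes among their leading genes. Ureteric epithelium-like nuclei had 31.1 CPM and urothelium-like nuclei 21.9 CPM. Across the 11 named classes the order at E18.5 ran from proximal tubule-like (193 CPM) and nephron progenitor-like nuclei, which did not differ beyond counting error (ratio 1.03, 0.960–1.10), through interstitium-like (121 CPM), podocyte-like (88.5 CPM) and loop of Henle-like nuclei (60.3 CPM). Each of these last steps exceeded counting error, and the classes below, from endothelium-like to urothelium-like, did not differ from their neighbours. The ratio of proximal tubule-like nuclei to all others at E18.5 was 1.62 (1.53–1.70), but it depended on which clusters took that name and fell below 1 in 3 of the alternative clusterings, to 0.655 at the lowest.

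At P3 Aldh1a2 was highest in Eya1-led and Grid1-led nuclei of the nephron lineage, and its level in nephrogenic zone stroma-like nuclei was lower than at E18.5. The Eya1-led cluster of 940 nuclei, which kept no class name because it raised early nephron markers while progenitor markers led it, had 293 CPM, and the early nephron-like cluster led by Grid1 had 273 CPM, with a ratio between them of 1.08 (0.956–1.21). The early nephron-like level was 7.70 times (6.50–9.13) that of the proximal tubule-like cluster led by Slc5a12 and Slc34a1 and 5.75 times (4.60–7.23) that of the cluster led by Aadat and Slc7a12. Nephrogenic zone stroma-like nuclei had 100.9 CPM (87.8–115), above the library mean of 76.1 CPM. This was still 3.09 times (2.60–3.66) the other interstitium-like nuclei but 0.344 times (0.297–0.397) the Eya1-led cluster. Leukocyte-like nuclei had 12.4 CPM.

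**Figure D1:**
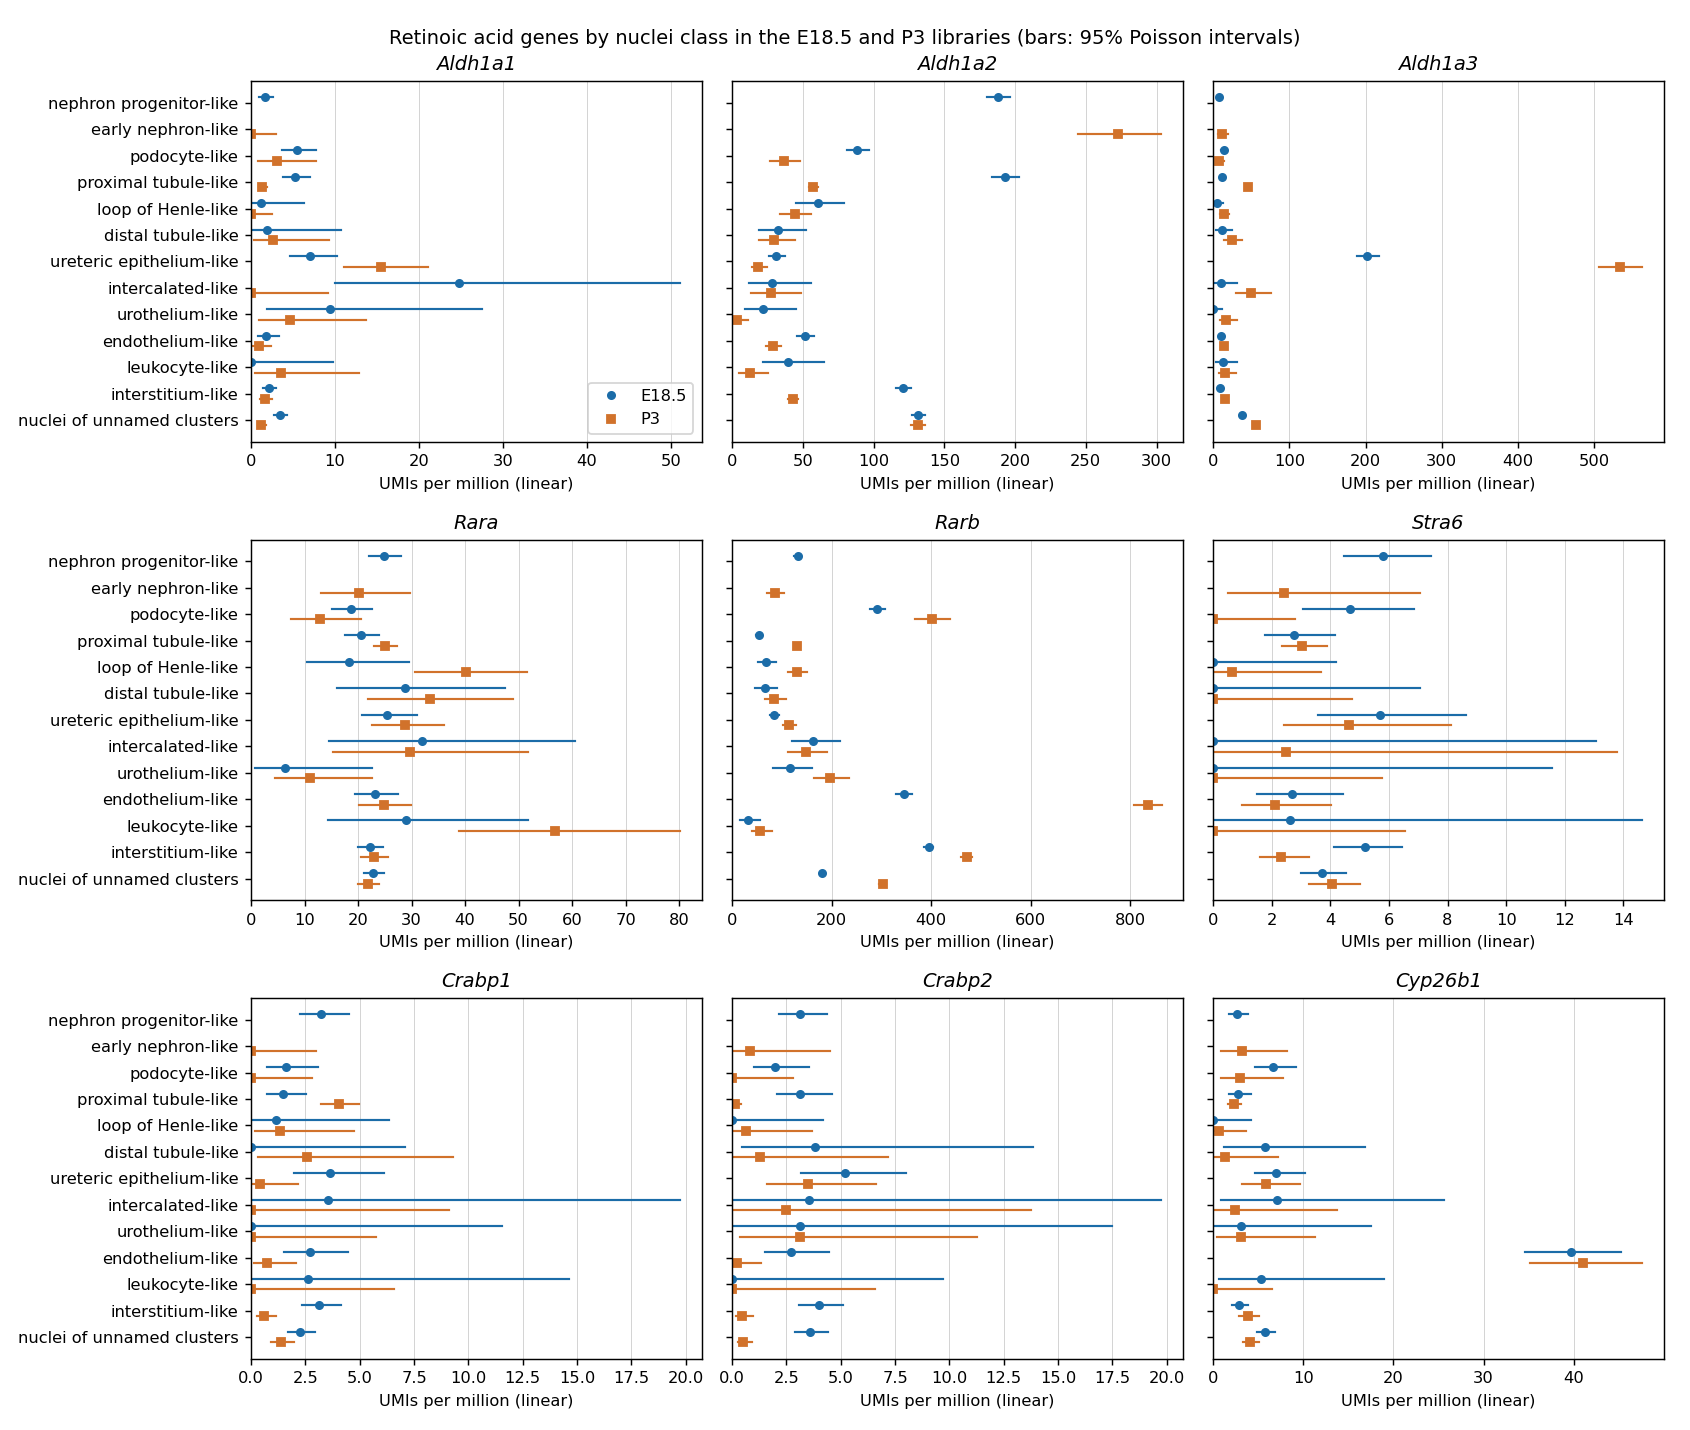
Level of each of the 9 genes (x axis, CPM, linear scale that differs between panels) in the marker-defined classes and in unnamed clusters (y axis) for the E18.5 library (blue circles) and the P3 library (orange squares), with exact 95% Poisson intervals as bars. Aldh1a3 stands apart in ureteric epithelium-like nuclei (202 and 534 CPM) and Cyp26b1 in endothelium-like nuclei (39.7 and 41.0 CPM), Aldh1a2 is spread over progenitor, tubule and interstitial classes, and Rara stays between 6.27 and 31.9 CPM at E18.5.

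Aldh1a3, the dehydrogenase gene of the ureteric lineage and of other branching epithelia, lies at chr7:66390890-66427517 (-). The files held 2205 of its UMIs at E18.5 and 3954 at P3. In ureteric epithelium-like nuclei its level was 202 CPM (188–217) at E18.5 and 534 CPM (506–563) at P3, 10.4 times (9.55–11.4) and 14.0 times (13.1–14.9) that of all other nuclei. The P3 value was 23.6 times without called doublets and 25.6 times without doublet-rich clusters. The next class had 13.7 CPM at E18.5 (podocyte-like) and 49.4 CPM at P3 (intercalated-like, from 20 UMIs). No UMI was found in the 85 urothelium-like nuclei at E18.5, which allows up to 9.40 CPM at 3 counts, and their P3 level was 17.2 CPM. Proximal tubule-like nuclei reached 45.7 CPM at P3. That level lay mainly in a cluster in which 88.9% of nuclei were called doublets (69.6 CPM), and the Slc5a12-led cluster with few called doublets had 12.97 CPM.

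The ureteric epithelium-like nuclei fell into 2 clusters at each age, and Aldh1a3 differed between them. One was led by Slc14a2, Mgat4c and Fxyd4 and the other by Ros1, Slco4c1 and 9230110F11Rik. The collecting duct markers Aqp2 and Wnt7b were raised in the Slc14a2-led cluster alone at E18.5 and in both clusters at P3. Wnt11, another ureteric marker, was raised in the Ros1-led cluster alone at E18.5 and in neither cluster at P3. At E18.5 the Slc14a2-led cluster had 319.6 CPM and the Ros1-led cluster 108 CPM, a ratio of 2.96 (2.53–3.46). At P3 they had 1162 CPM and 128 CPM, a ratio of 9.10 (7.82–10.6), and 91.2% of the 148 Slc14a2-led nuclei held an Aldh1a3 UMI (62.2% when thinned to 1000 UMIs). A P3 cluster led by Plppr1 and sodium channel genes (Scnn1b, Scnn1g), which kept no name although it raised ureteric markers, had 337 CPM. Ret, the GDNF receptor gene used here as a known retinoic acid response gene, showed the reverse order. Its level was 108 CPM in the Ros1-led cluster and 2.33 CPM in the Slc14a2-led cluster at E18.5, and 118 CPM and 3.95 CPM at P3. The clusters also differed in the ureteric markers given above, and whether the order of Ret follows retinoic acid was not tested.

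**Figure D2:**
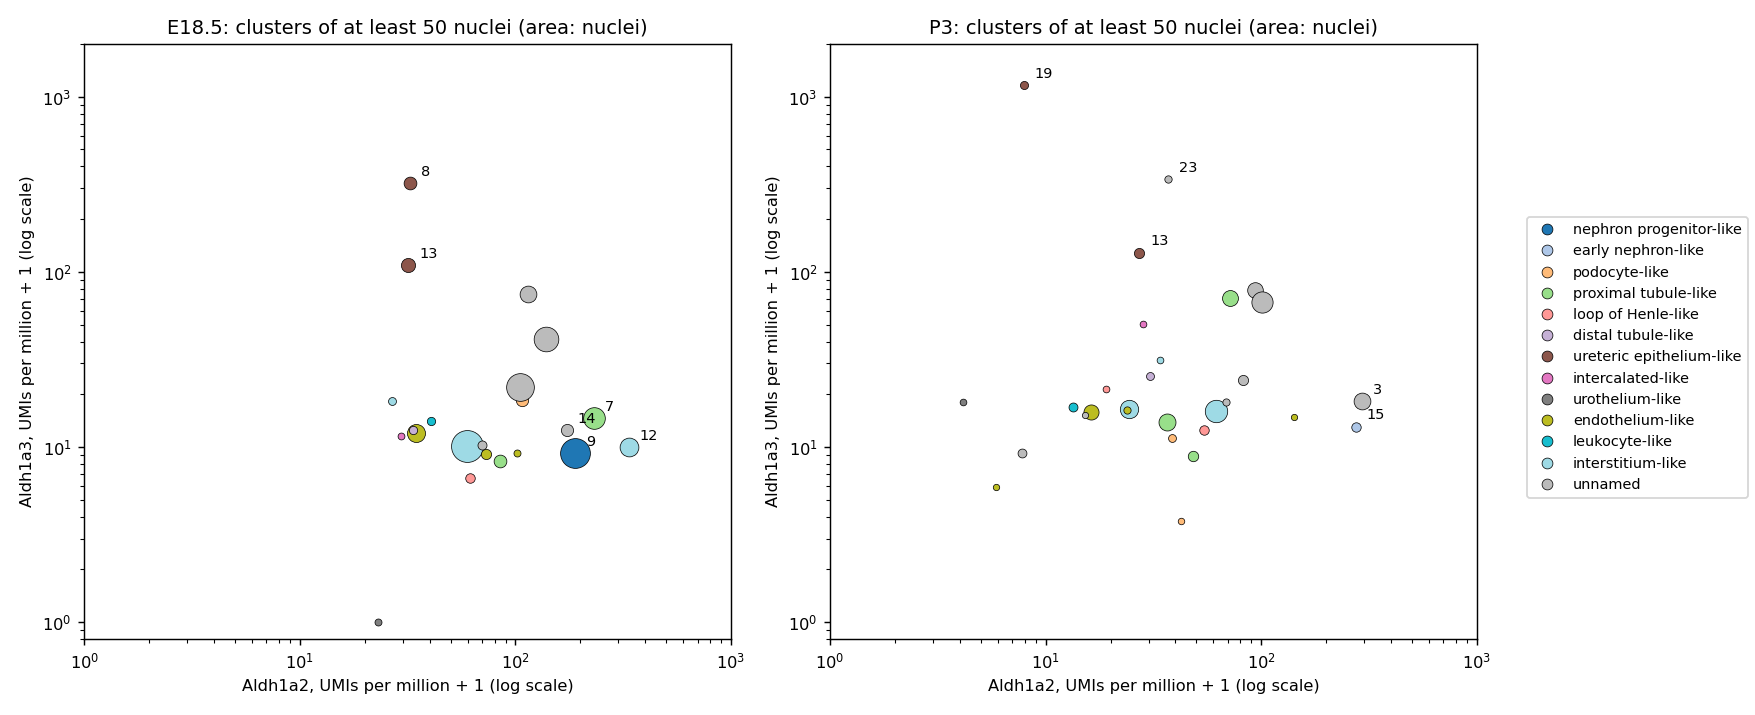
Aldh1a2 (x axis) against Aldh1a3 (y axis), both as CPM plus 1 on log scales, in every cluster of at least 50 nuclei at E18.5 (left) and P3 (right), with circle area for the number of nuclei and color for the class. Ureteric epithelium-like clusters 8 and 13 at E18.5 and 19 and 13 at P3 sit high on Aldh1a3 with at most 31.4 CPM of Aldh1a2, and the labelled clusters highest in Aldh1a2 (12, 7 and 9 at E18.5, 3 and 15 at P3) have at most 17.3 CPM of Aldh1a3.

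Aldh1a1, a retinal dehydrogenase gene expressed in many adult tissues, lies at chr19:20492715-20643465 (+) and was sparse, with 258 UMIs at E18.5 and 132 UMIs at P3. At E18.5 the intercalated-like nuclei had 24.8 CPM from only 7 UMIs (interval 9.97–51.1), which did not differ beyond counting error from the next class (ratio 2.64, 0.602–15.8). At P3 the ureteric epithelium-like nuclei had 15.5 CPM (40 of the 132 UMIs), 11.4 times (7.64–16.6) all others. The Slc14a2-led cluster had 28.6 CPM there and the Ros1-led cluster 7.03 CPM (ratio 4.07, 1.98–9.03), whereas at E18.5 the Ros1-led cluster was the higher, at 10.3 CPM against 2.91 CPM (ratio 3.54, 1.31–11.95). The interstitial cluster led by Ebf2 and Tnxb had few Aldh1a1 UMIs at both ages, with 15.1 CPM at E18.5 (7 UMIs in 6 nuclei) and 24.7 CPM at P3 (9 UMIs in 4 nuclei, all in 1 group of 29 nuclei when the interstitial nuclei were clustered on their own, and in 0 nuclei after thinning). The largest interstitial cluster of each age had 1.27 CPM and 1.10 CPM, giving ratios of 11.9 (4.11–31.1) and 22.5 (7.69–66.9).

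Stra6, the retinol uptake gene, lies at chr9:58063788-58153996 (+). The annotated gene Gm16131 overlaps it on the same strand, so reads from the shared stretch could belong to either of the 2 genes. Its UMIs numbered 325 at E18.5 and 211 at P3. No class stood apart from the next, and at each age 0 neighbouring pairs of classes in the order of levels differed beyond counting error. Neighbouring pairs cannot show differences between classes further apart. At E18.5 the leading nephron progenitor-like nuclei had 5.81 CPM, 1.47 times (1.10–1.95) all other nuclei. Within the interstitium-like nuclei at E18.5, the papillary stroma-like group had 14.5 CPM (8.44–23.2, from 17 UMIs) and the medullary stroma-like group 7.57 CPM, against 1.85 CPM in the cortical stroma-like group. The papillary level was 3.25 times (1.79–5.61) that of the other interstitium-like nuclei. It was not particular to the papillary group. An unnamed Nrxn3-led interstitial cluster of 331 nuclei, which raised the medullary markers Zfp536, Alx1 and Penk, had 14.8 CPM (9.25–22.3, from 22 UMIs).

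The cellular retinoic acid-binding protein genes had the fewest UMIs of the 9 over both libraries together. Crabp1 (chr9:54764748-54773110, +) gave 194 UMIs at E18.5 and 132 at P3, and Crabp2 (chr3:87948666-87953376, +) had 263 and 36. At E18.5 Crabp1 was between 0 and 3.63 CPM in every named class. The Ebf2-led interstitial cluster had 10.8 CPM and the largest interstitial cluster 2.78 CPM (ratio 3.87, 1.18–9.98). At P3, 86 of its 132 UMIs lay in proximal tubule-like nuclei, at 4.03 CPM and 4.27 times (2.95–6.25) all others, with 7.24 CPM in the Slc5a12-led cluster and 0.922 CPM in the Aadat-led cluster. Crabp2 at E18.5 was 9.90 CPM in the Slc14a2-led ureteric cluster and 1.40 CPM in the Ros1-led cluster (ratio 7.05, 2.04–37.6). At P3 the ureteric epithelium-like nuclei held 9 of its 36 UMIs, at 3.49 CPM.

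Cyp26b1 (chr6:84571414-84593908, -), whose enzyme breaks retinoic acid down, had its highest class level in endothelium-like nuclei at both ages. These nuclei held 221 of its 535 UMIs at E18.5 and 174 of 393 at P3, so most of its UMIs lay in other nuclei. Endothelium-like nuclei had 39.7 CPM (34.6–45.3) at E18.5 and 41.0 CPM (35.2–47.6) at P3, 9.07 times (7.60–10.8) and 12.3 times (10.0–15.1) all other nuclei, and no other named class exceeded 7.09 CPM. In both libraries the endothelial cluster with few called doublets had the higher level. It was 48.6 CPM against 29.0 CPM in a cluster with 59.7% called doublets at E18.5, and 51.1 CPM against 20.3 CPM in a cluster with 77.5% at P3. The P3 endothelial cluster led by Sox17, Vegfc and Bmx had 39.2 CPM and did not differ beyond counting error from the main cluster (ratio of main to Sox17-led 1.30, 0.643–3.07).

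Rarb (chr14:16430839-16819156, -), which encodes the receptor RARβ and is itself a textbook target of retinoic acid, is the member with the most UMIs, 16734 at E18.5 and 20790 at P3. Its promoter is shown because it holds the direct repeat by which RAR-RXR dimers are known to act on this gene. The window covers 250 bases before to 50 after a RefSeq start site, at chr14:16575427-16575726 of GRCm38.p6 on the minus strand, inside the annotated Rarb gene. Capitals mark the match to 2 repeat units spaced by 5 bases, at chr14:16575513-16575529, which is 53 to 37 bases before the start site.

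Rarb promoter: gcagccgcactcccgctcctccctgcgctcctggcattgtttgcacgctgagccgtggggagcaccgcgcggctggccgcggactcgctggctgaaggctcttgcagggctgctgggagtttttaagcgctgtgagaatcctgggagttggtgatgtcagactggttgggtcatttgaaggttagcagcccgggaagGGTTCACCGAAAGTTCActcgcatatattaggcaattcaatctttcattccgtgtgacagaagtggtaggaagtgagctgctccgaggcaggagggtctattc

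The repeat unit searched was A or G, followed by G, by G or T and by TCA, on both strands, as direct repeats spaced by 1, 2 or 5 bases. Of 32851 RefSeq promoter windows of this length, 32 (0.0974%) held a pair spaced by 5 bases, 73 (0.222%) a pair spaced by 1 and 88 (0.268%) a pair spaced by 2. Windows were given for 7 of the 9 genes (14 windows in all), and 1 of the 14, that of Rarb, held a match. A match is a description of the letters and not evidence of binding.

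Among named classes Rarb was highest in stroma, endothelium and podocytes. At E18.5 the interstitium-like nuclei had 395 CPM (385–405), the endothelium-like nuclei 345 CPM (330–361) and the podocyte-like nuclei 292 CPM (278–306). The steps between these classes exceeded counting error, but the ratio of interstitium-like to all other nuclei, 2.32, ranged from 1.57 to 3.25 over the alternative clusterings and doublet settings. The largest podocyte-like cluster, with 3.003% called doublets, had 237 CPM, near the library mean of 216 CPM, and the next, with 85.2%, had 329 CPM. Proximal tubule-like nuclei had 53.2 CPM and leukocyte-like nuclei 31.5 CPM. Among stromal groups Rarb took another order than Aldh1a2. The papillary stroma-like group was highest at 806 CPM (756–859), 2.23 times (2.08–2.39) the other interstitium-like nuclei, 1.95 times (1.79–2.13) the nephrogenic zone stroma-like group (413 CPM) and 3.66 times (3.30–4.07) the cortical stroma-like group (220 CPM). A Rarb UMI was present in 83.2% of papillary stroma-like nuclei and in 47.3% when thinned. Papillary and cortical stroma-like groups were both low in Aldh1a2, so the stromal order of the receptor gene did not follow that of the dehydrogenase gene.

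**Figure D3:**
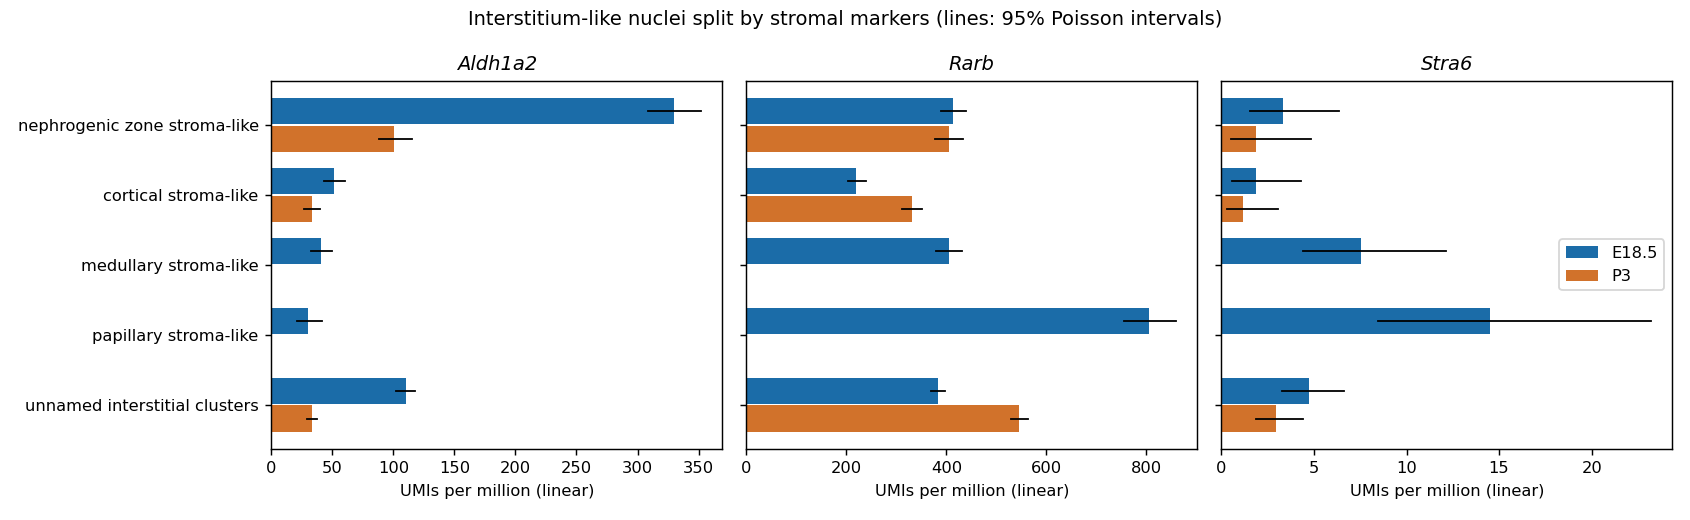
Level of Aldh1a2, Rarb and Stra6 (x axis, CPM, linear from 0) in interstitium-like nuclei split by stromal markers (y axis), with E18.5 in blue, P3 in orange and exact 95% Poisson intervals as lines. Of the named groups, Aldh1a2 is highest in the nephrogenic zone stroma-like group (329.5 CPM at E18.5), Rarb (806 CPM) and Stra6 (14.5 CPM) are highest in the papillary stroma-like group, and no P3 cluster was named medullary or papillary.

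At P3 endothelium-like nuclei led, with 835 CPM (808–863) against 471 CPM in interstitium-like and 402 CPM in podocyte-like nuclei. The podocyte-like value joined 231 CPM in the largest cluster (3.03% called doublets), under the library mean of 297 CPM, 546 CPM in a smaller one (13.1%) and 526 CPM in one made up of called doublets. A Rarb UMI was found in 78.1% of endothelium-like nuclei (47.9% thinned) and in 12.5% of leukocyte-like nuclei (5.58% thinned, median depth 2552 UMIs against 3762 UMIs in endothelium-like nuclei). The main endothelial cluster had 948 CPM and the Sox17-led endothelial cluster 152 CPM, a ratio of 6.24 (4.38–9.20).

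Rara (chr11:98927818-98974942, +), which encodes the broadly expressed receptor RARα, showed little difference between classes at E18.5. The annotated gene Gm22061 overlaps Rara on the same strand. The UMIs of Rara numbered 1745 at E18.5 and 1684 at P3, and its level was between 6.27 and 31.9 CPM in all named classes at E18.5. The lowest and highest of these E18.5 levels rested on 2 UMIs (urothelium-like) and 9 UMIs (intercalated-like). At each age 0 of the 10 neighbouring pairs in the order of classes differed beyond counting error, which cannot show differences between classes further apart. At P3 the leukocyte-like nuclei had 56.8 CPM (38.9–80.2), 2.39 times (1.63–3.39) all other nuclei, and the podocyte-like nuclei 12.9 CPM (7.49–20.6).

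How strongly a leading class stood out was read against all genes. The leading class was at least 2 times the next class for 3 of the 9 genes at E18.5 (Aldh1a1, Aldh1a3 and Cyp26b1), where 19.3% of all genes measured reached this ratio. At P3 it was so for 4 of the 8 measured (Aldh1a1, Aldh1a2, Aldh1a3 and Cyp26b1), against 20.6% of all genes. The Aldh1a1 ratio at E18.5 rested on 7 UMIs in the leading class and its interval held 1 (2.64, 0.602–15.8). Only named classes entered these ratios. For Aldh1a2 at P3 the unnamed Eya1-led cluster had 293 CPM, against 273 CPM in the leading early nephron-like class.

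The comparison of ages asks where retinoid genes differ between the late embryonic and the early postnatal kidney. Over all kept nuclei, P3 was at least 2 times E18.5 for 0 of the 9 genes, against 5.21% of all genes, and at most 0.5 times for 1 of 9, Crabp2, against 10.4%. The ratio of P3 to E18.5 was 0.151 (0.104–0.215) for Crabp2, 0.565 (0.454–0.699) for Aldh1a1, 0.598 (0.578–0.618) for Aldh1a2, 1.37 (1.34–1.40) for Rarb and 1.98 (1.88–2.09) for Aldh1a3. It was 1.06 (0.996–1.14) for Rara. Over all genes the median of the log2 ratio was -0.12. Fewer nuclei of a type and less RNA per nucleus both enter such whole-library values.

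Within interstitium-like nuclei 4 of the 9 genes were at most 0.5 times their E18.5 level, against 12.9% of genes, and 0 of 9 reached 2 times, against 2.77%. Aldh1a2 was at 0.357 (0.325–0.391), with 121 CPM at E18.5 and 43.2 CPM at P3. Stra6 was at 0.448 (0.288–0.681), Crabp1 at 0.186 (0.0761–0.395) and Crabp2 at 0.109 (0.0385–0.2503), while Rarb was at 1.19 (1.15–1.24). In endothelium-like nuclei 5 genes had enough UMIs. Of these, 1 reached 2 times, Rarb at 2.42 (2.29–2.56), against 1.91% of genes, and 0 were at most 0.5 times, against 11.1%. In ureteric epithelium-like nuclei 2 of 5 reached 2 times, Aldh1a3 at 2.64 (2.42–2.89) and Aldh1a1 at 2.21 (1.33–3.75), against 2.88% of genes, and 0 of 5 were at most 0.5 times, against 12.2%.

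In proximal tubule-like nuclei 3 of the 8 genes with enough UMIs reached 2 times, against 7.59% of genes. These were Aldh1a3 at 3.83 (3.11–4.76), Crabp1 at 2.78 (1.51–5.60) and Rarb at 2.46 (2.23–2.73). The genes at most 0.5 times were 2 of 8, Aldh1a1 at 0.253 (0.151–0.417) and Aldh1a2 at 0.297 (0.276–0.321), against 11.5%. Different clusters held this class at the ages, and the Aldh1a2 ratio ranged from 0.199 to 0.675 over the alternatives. At P3 the doublet-rich tubule cluster had 199.9 CPM of Rarb, and the clusters with few called doublets had 32.6 CPM and 34.1 CPM. Those 2 values were under the E18.5 level of the class, 53.2 CPM. The P3 level of Aldh1a3 also lay mainly in the doublet-rich cluster, as given above. In the Slc5a12-led cluster Aldh1a3 was near its E18.5 level in the class, 11.95 CPM. In loop of Henle-like nuclei 1 of 3 genes reached 2 times, Rara at 2.20 (1.25–4.09, from 16 UMIs and 61 UMIs), against 2.92%, and 0 of 3 were at most 0.5 times, against 9.29%. In podocyte-like nuclei 0 of 4 reached 2 times, against 1.56%, and 1 of 4 was at most 0.5 times, Aldh1a2 at 0.410 (0.298–0.552), against 16.1%. That ratio was above 0.5 in 3 alternatives, at 0.683 with Leiden, 0.7199 without called doublets and 0.664 without doublet-rich clusters.

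Clusters of the libraries that shared leading genes were then set side by side, since the makeup of a class can differ between ages. The Eya1-led clusters, which shared 4 of 10 leading genes, had 188 CPM of Aldh1a2 at E18.5 and 293 CPM at P3, a ratio of 1.56 (1.46–1.67). The E18.5 cluster was named nephron progenitor-like, and the P3 cluster kept no name and raised early nephron markers. The main nephrogenic zone stroma-like clusters, sharing Reln, Gria1 and Aox3, had 342 CPM and 100.7 CPM, a ratio of 0.295 (0.2504–0.3452). Aldh1a2 thus had opposite directions in the Eya1-led and the stromal clusters. In the Grid1-led clusters it had 232 CPM and 273 CPM (ratio 1.18, 1.04–1.33), a direction that turned in 3 alternative clusterings, to 0.589 at the lowest. In the main endothelial clusters Aldh1a2 had 33.7 CPM and 15.3 CPM (ratio 0.453, 0.311–0.649). Other epithelial matches were not higher at P3. The proximal tubule-like clusters sharing Aadat and Slc7a12 had 83.8 CPM and 47.5 CPM (ratio 0.567, 0.441–0.726). The largest podocyte-like clusters had 59.0 CPM and 37.7 CPM (ratio 0.639, 0.386–1.01).

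Rarb in the main endothelial clusters, which shared Flt1, Tek, Egfl7 and 3 more leading genes, had 332 CPM at E18.5 and 948 CPM at P3, a ratio of 2.86 (2.66–3.06). Cyp26b1 in the same clusters had 48.6 CPM and 51.1 CPM (ratio 1.05, 0.835–1.32). Rarb had 386 CPM and 393 CPM in the nephrogenic zone stroma-like clusters (ratio 1.02, 0.922–1.12), 237 CPM and 231 CPM in the podocyte-like clusters (ratio 0.979, 0.803–1.19) and 663 CPM and 645 CPM in the Nrxn3-led interstitial clusters (ratio 0.972, 0.901–1.05). In the Eya1-led clusters it had 131 CPM and 203 CPM (ratio 1.55, 1.43–1.68). Stra6 in the Nrxn3-led interstitial clusters had 14.8 CPM and 4.16 CPM (ratio 0.282, 0.134–0.577).

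Aldh1a3 in the Slc14a2-led ureteric clusters, which shared 6 of 10 leading genes, had 319.6 CPM at E18.5 and 1162 CPM at P3, a ratio of 3.64 (3.28–4.03). In the Ros1-led ureteric clusters, which shared 7, it had 108 CPM and 128 CPM (ratio 1.18, 0.973–1.43). The higher P3 level of the ureteric class thus lay in the Slc14a2-led nuclei. With Leiden clustering, which did not keep these clusters apart, the ratio was 2.57 for both. Aldh1a1 in the Slc14a2-led clusters had 2.91 CPM and 28.6 CPM (ratio 9.83, 3.76–32.5).

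**Figure D4:**
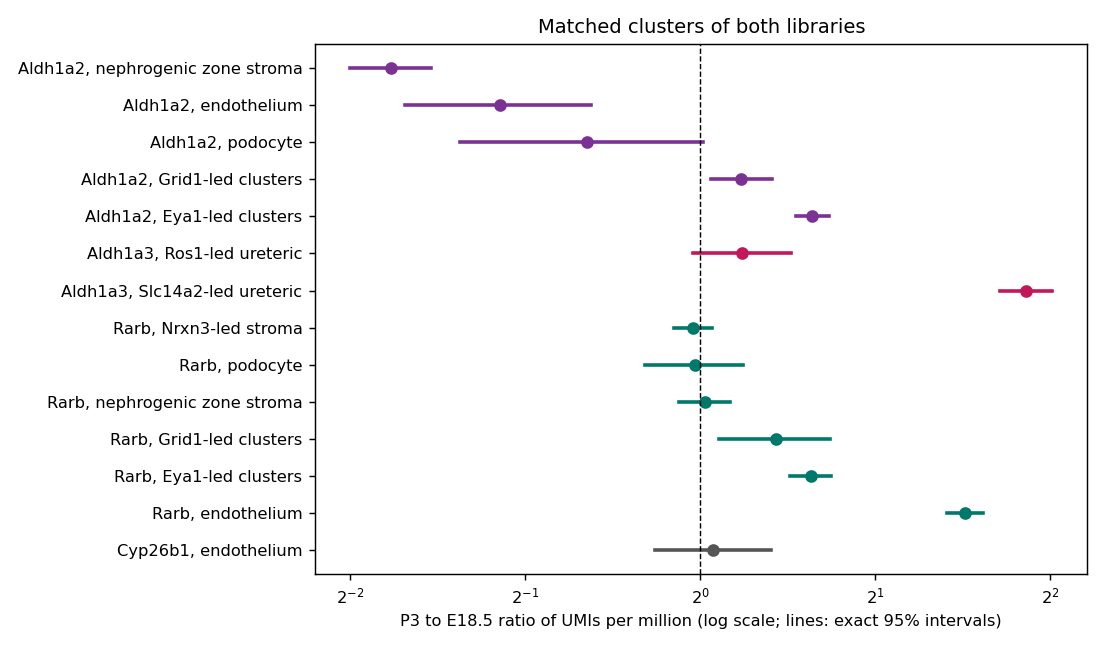
Ratio of P3 to E18.5 CPM (x axis, log scale, dashed line at equal levels) for a gene in clusters that shared leading genes (y axis), with exact 95% intervals as lines. Aldh1a2 lies low in nephrogenic zone stroma (0.295) and high in the Eya1-led clusters (1.56), Aldh1a3 is high in the Slc14a2-led ureteric clusters (3.64), and Rarb is high in endothelium (2.86) and near equal in stroma and podocytes.

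Whether single stromal nuclei carried both a source and a receptor transcript was counted after thinning each interstitium-like nucleus to 1000 UMIs. At E18.5, 150 of 4955 nuclei held both Aldh1a2 and Rarb, where 151 would be found if the genes were independent within each stromal group (ratio 0.992, 0.840–1.16). At P3 it was 34 of 2960 nuclei, where 36.3 would be found (ratio 0.938, 0.650–1.31). Of the 36 pairs of the 9 genes, 8 at E18.5 and 3 at P3 had an expected count of at least 5 nuclei, and in 0 of these the interval left out 1.

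Genes with profiles most like each member were ranked over the clusters of at least 50 nuclei, 23 at E18.5, and the same correlation was then taken over the 29 at P3. Clusters of a library share depth and free RNA, and these values are descriptions. Aldh1a2 was most like Gxylt2 (Pearson's r 0.785 at E18.5, 0.719 at P3), Amot (0.782, 0.265) and Sall1 (0.772, 0.7999), a transcription factor gene of nephron progenitors. For Aldh1a3 the nearest were Vwa2 (0.890, 0.676), Tcp11 (0.880, 0.758) and Lix1 (0.873, 0.953). For Rarb they were Fbxl7 (0.895, 0.664), Zfp423 (0.887, 0.795) and 1700109K24Rik (0.867, 0.725). For Cyp26b1 they were Tmem255a (0.911, 0.639), Ccm2l (0.909, 0.892) and Flt4 (0.903, 0.840), the last a receptor gene of lymphatic and fenestrated endothelium. The genes nearest to Rara and Aldh1a1 at E18.5 had lower values at P3, from -0.03 to 0.40 for Spg7, Mtx3 and Cul4a and from -0.01 to 0.26 for Anxa4, Kctd16 and Yod1.

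The wider retinoid list held 50 genes, the 9 included, and all 50 were in the files. Of these, 44 had at least 50 UMIs over both libraries. Over all kept nuclei 1 of the 44 was at least 2 times higher at P3 and 6 were at most 0.5 times, where the shares of all genes were 5.21% and 10.4%. The counts are no result about the list. The higher gene was Dhrs3, whose enzyme reduces retinal back to retinol, with 80.2 CPM at E18.5 and 173 CPM at P3 (ratio 2.16, 2.10–2.23). Dhrs3 led in urothelium-like nuclei among the named classes at both ages (213 CPM and 321 CPM) and reached 377 CPM in the Slc5a12-led tubule cluster and 366 CPM in the nephrogenic zone stroma-like group at P3. The lower were Crabp2, the serum carrier gene Rbp4 (ratio 0.227, 0.177–0.287), Rbp2 (ratio 0.265, 0.128–0.505), Fabp5, which encodes another fatty acid and retinoic acid carrier (92.9 CPM and 20.8 CPM, ratio 0.224, 0.211–0.237), Rdh14 (ratio 0.456, 0.422–0.494) and Adh5 (57.9 CPM and 25.7 CPM, ratio 0.445, 0.421–0.470).

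By role, Adh1, an alcohol dehydrogenase gene that acts on retinol, had 313.5 CPM in urothelium-like nuclei at both ages, 20.9 times (16.9–25.7) all others at E18.5 and 16.96 times (14.5–19.7) at P3. Among receptors, Rarg led in urothelium-like nuclei (107 CPM and 79.6 CPM) ahead of endothelium-like nuclei (51.9 CPM and 62.2 CPM), and Rxra led there too (56.4 CPM and 74.9 CPM). Rdh10, the main retinol dehydrogenase gene of the embryo, led in nephron progenitor-like nuclei at E18.5 with 51.5 CPM, a class that also carried Aldh1a2. At P3 Rdh10 led in ureteric epithelium-like nuclei with 32.95 CPM, which did not differ beyond counting error from all other nuclei (ratio 0.965, 0.768–1.199). Dhrs4, another short-chain reductase gene, led in proximal tubule-like nuclei (72.4 CPM and 76.7 CPM). Of the 6 coregulator genes 0 were past either ratio between ages. The coactivator genes Ncoa1, Ncoa2 and Ncoa3 had ratios of 1.60 (1.57–1.63), 1.22 (1.199–1.241) and 0.998 (0.966–1.03). Nrip1, a corepressor gene induced by retinoic acid, led in ureteric epithelium-like nuclei (444 CPM and 599 CPM). Ret was led by ureteric epithelium-like nuclei at both ages (61.0 CPM and 72.9 CPM).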

How the data were processed

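Nuclei were profiled with the Chromium 3' kit (10x Genomics), and the authors deposited 1 matrix of unnormalized UMI counts per library. The submitters' processing notes name Cell Ranger 5.0.1 and mm10 for both, whereas the file headers give 7.0.0 for E18.5 and 5.0.1 for P3. Whether intronic reads were counted is not given in the sources used here. Gene positions are from GENCODE annotation of GRCm38. The members and gene lists were chosen with earlier results of these data known.

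Nuclei with low UMIs or genes (3 median absolute deviations on the log scale) (112 at E18.5, 0 at P3) or high mitochondrial shares (220 and 451) were left out, which left 77321253 and 70055219 UMIs. After scran 1.30.0 normalization, 2000 variable genes without any retinoid gene gave 50 principal components, a graph of 10 neighbors and Walktrap clusters. Scrublet (scanpy 1.11.5, expected rate 0.1) called 3494 and 1977 doublets, which were kept. A cluster was named when at least 3 markers of a class were 2 times higher than in other nuclei (10 CPM added), no other class exceeded 0.8 of its score or was better represented among its 10 leading genes. Erythroid clusters that did not raise Alas2 were left unnamed, as were clusters far below the median depth with no marker of the class among their leading genes. A further rule for interstitial clusters was dropped after the clusters, but not the members' values, had been seen.

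UMIs were summed per type. With 1 library per age no p-value was computed. Ratio intervals (scipy 1.17.1) were tried on simulated Poisson counts only. These follow the model of the intervals and hold no clumping of UMIs within nuclei, so they cannot show how the intervals do where UMIs clump. Comparisons used genes with at least 50 UMIs over both libraries. Values are named for the 9 members, for genes of the wider list with at least 50 CPM in a named class and for the 3 most similar genes of members with at least 20 CPM. Rbp2, Rbp4, Rdh14 and the clusters matched across ages were chosen after their values were seen. Alternatives were 20 neighbors, Leiden clustering, called doublets left out, linear quality limits, doublet-rich clusters left out and thinning to 2000 UMIs. Some genes are not reported here.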

Additional observations from a re-analysis of the deposited data

Results flagged for a closer look

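The proximal tubule-like class stood on opposite sides of all other nuclei at the 2 ages for 3 genes. The difference between ages was not tested, since each age is 1 library. Aldh1a2 in proximal tubule-like nuclei was 1.615 times (1.53–1.70) all other nuclei at E18.5 and 0.6803 times (0.638–0.725) at P3. Aldh1a1 was 1.666 times (1.17–2.32) and 0.6146 times (0.390–0.940). Crabp1 moved the other way, from 0.5493 times (0.279–0.983) to 4.268 times (2.95–6.25). Different clusters held the class at the 2 ages. At E18.5, 1628 of its 2128 nuclei lay in the Grid1-led cluster, and at P3 the Grid1-led cluster of 231 nuclei was named early nephron-like and 832 of the 2103 proximal tubule-like nuclei lay in a cluster with 88.9% called doublets. The Aldh1a2 value at E18.5 was on the side of the P3 value in 3 alternatives, at 0.876 with 20 neighbors, 0.679 without called doublets and 0.655 with linear quality limits. It was 1.83 with Leiden and 1.70 without doublet-rich clusters. The Crabp1 value at P3 was between 4.27 and 6.31 over the alternatives. The part of the naming in the Aldh1a1 and Crabp1 values was not tested.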

How the results depend on the processing

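Each library is 1 pool, so depth and counting error limit the sparse members, and no leave-one-out was possible. No paired analysis was possible because each age has 1 library. Of 160 values under an alternative, 109 kept their direction and moved by less than their interval, 45 moved further and 6 reversed. At P3 the linear quality limits keep the same nuclei. The cause of each change below was not tested.

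Aldh1a2 in proximal tubule-like to all other nuclei at E18.5 (1.62) reversed to 0.876 with 20 neighbors, 0.679 without called doublets and 0.655 with linear limits, and was 1.83 with Leiden. Aldh1a2 between the Grid1-led clusters (1.18) reversed to 0.589 with Leiden, 0.904 without called doublets and 0.904 with linear limits. Aldh1a2 in early nephron-like nuclei at P3 (3.76 times all others) was 2.04 with 20 neighbors and 1.93 without called doublets. Its P3 to E18.5 ratio in interstitium-like nuclei (0.357) was 0.258 with Leiden, 0.324 without called doublets and 0.315 with linear limits. Aldh1a3 in ureteric epithelium-like to all other nuclei was 13.1 without called doublets and 14.0 without doublet-rich clusters at E18.5 (10.4), and 15.2 with 20 neighbors, 23.6 without called doublets and 25.6 without doublet-rich clusters at P3 (14.0). Its P3 to E18.5 ratio there (2.64) was 2.94 with 20 neighbors and 4.02 without called doublets. Rarb in interstitium-like to all other nuclei at E18.5 (2.32) moved in 5 of 5 alternatives, from 1.57 to 3.25. The Rarb ratio in endothelium-like nuclei (2.42) was 2.70 with 20 neighbors, 2.65 with Leiden and 2.69 without doublet-rich clusters.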
